A study of Mus musculus with 17 samples.

Results

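Voltage-gated sodium and calcium channels were followed through a dilution and amplification series of mouse cortex mRNA. The members were the genes whose only symbol in the array annotation is Scn with a number and a or b, or Cacna1, Cacna2d, Cacnb or Cacng with a further letter or number. The rule found 35 of 18193 genes, carried by 85 of 45037 probe sets, and it used no measured value. They comprise 8 sodium channel alpha genes, 3 sodium channel beta genes, 9 calcium channel alpha1 genes, 4 alpha2delta genes, 3 calcium channel beta genes and 8 gamma genes.

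A voltage-gated sodium channel is a pore-forming alpha subunit joined by beta subunits, and in neurons it opens on depolarization to carry the rising phase of the action potential. A voltage-gated calcium channel is an alpha1 pore assembled with beta and alpha2delta subunits, which bring it to the membrane and shape its opening, and it turns the action potential into transmitter release, dendritic calcium entry and gene regulation. Most of the genes named as gamma subunits encode partners of AMPA-type glutamate receptors.

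All RNA came from 1 source, the cortex of adult female C57BL/6 mice, which were neither treated nor genetically altered. Aliquots of 0.1, 1 and 10 pg of mRNA, the amount of RNA in a single cell, were amplified on their own as antisense RNA (aRNA) for 4 or 2 rounds and hybridized to an Affymetrix mouse array. The groups were 0.1, 1 and 10 pg after 4 rounds (3 arrays each), 0.1 and 1 pg after 2 rounds (3 arrays each), 10 pg after 2 rounds (1 array) and 5 µg of bulk mRNA with no amplification (1 array). Replicates were separate amplifications of the same mRNA, so errors and p-values speak of how repeated amplifications vary, not of how mice vary, and the question was how far input and rounds move the signal of transcripts drawn from the same mRNA.

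A level here is the log2 signal of a probe set relative to the median of its array, scaled to a common spread. The signal also depends on the probes, and in a tissue extract fewer cells of a type and less RNA per cell cannot be told apart. All 8 neuron marker genes lay above the array median in bulk, with a median percentile of 94.7. The same was so for 3 of 5 astrocyte, 3 of 4 oligodendrocyte, 3 of 5 microglia, 3 of 5 vascular, 3 of 3 sensory ganglion, 3 of 9 skeletal and heart muscle and 2 of 5 retina markers. Some arrays held few distinct levels: the 85 channel probe sets took 32 on the 10 pg array after 2 rounds, 23, 31 and 50 on those of 0.1 pg after 2 rounds, 49 to 66 on those of 1 pg after 2 rounds, 62 to 76 after 4 rounds and 80 in bulk.

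In bulk cortex mRNA, channel probe sets lay both well above and below the array median. Where no probe set is named, a gene's value is that of its brightest one on average over the 17 arrays, which is not always the brightest in bulk, and levels of different probe sets give no order of expression between genes. Among the sodium channel alpha genes, Scn2a, the channel of the axon initial segment of excitatory neurons, stood at a level of 5.48. Scn8a, the channel of initial segments and nodes of Ranvier, was at 3.85, and Scn1a, known from inhibitory interneurons, at 2.00. Scn3a, which is known mainly from the developing brain, was at -1.14 and -0.57 on its probe sets, and Scn7a, a sodium sensor of glia, was at -0.52. Scn10a and Scn11a, known from sensory neurons, were at -0.47 and -0.08. Of the beta genes, Scn3b was at 1.85 on 1426328_a_at and at 4.07 on 1435767_at, Scn2b was between 0.91 and 2.01 on its 3 probe sets, and Scn4b was at 1.77 on its only one.

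Among the calcium channel pores, Cacna1d, an L-type channel, was at 5.57. Cacna1b, the N-type channel of presynaptic terminals, was at 1.87, and Cacna1a, the P/Q-type channel, at 1.63. The other probe sets of Cacna1a lay between -1.67 and -0.36, and those of Cacna1b between 0.06 and 1.13. The R-type pore Cacna1e was at 0.90 on 1421692_at and at 2.91 on 1436260_at. Cacna1c, the other brain L-type pore, was at -0.81 on 1435730_at and at 0.77 on 1421297_a_at, and the T-type pore Cacna1g was at -0.46. Of the alpha2delta genes Cacna2d1, a binding site of gabapentin, was at 4.10, Cacna2d4, known from retina, at 2.92, Cacna2d2 at 1.13 and Cacna2d3 at 0.55. On its other probe sets Cacna2d4 was at -2.17 and 0.25, and those of Cacna2d1 lay between -0.69 and 2.11. The beta genes were Cacnb1 at 4.98, Cacnb4 at 1.45 and Cacnb2 at -0.23. Of the gamma genes Cacng7 was at 6.42, Cacng3 at 1.85, the muscle subunit Cacng1 at 0.16, and Cacng2 (stargazin) at 0.82 on 1440210_at and at 1.62 on 1420596_at. Cacng6 was at -0.74 on 1451811_at and at 0.11 on 1425730_at.

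The levels of Cacna1d and Cacnb1 were each set by a probe set with the suffix _s_at, which Affymetrix gives to probes shared by transcripts of different genes. The other probe set of Cacna1d, 1428051_a_at, was at -0.36 in bulk, a range of 5.93 within the gene. The other 3 of Cacnb1 lay between -1.65 and 1.55, a range of 6.63, the widest of the 26 genes with several probe sets. Scn8a had the third widest range, 5.30, from -1.45 for 1442208_at to 3.85 for 1423515_at.

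**Figure D1:**
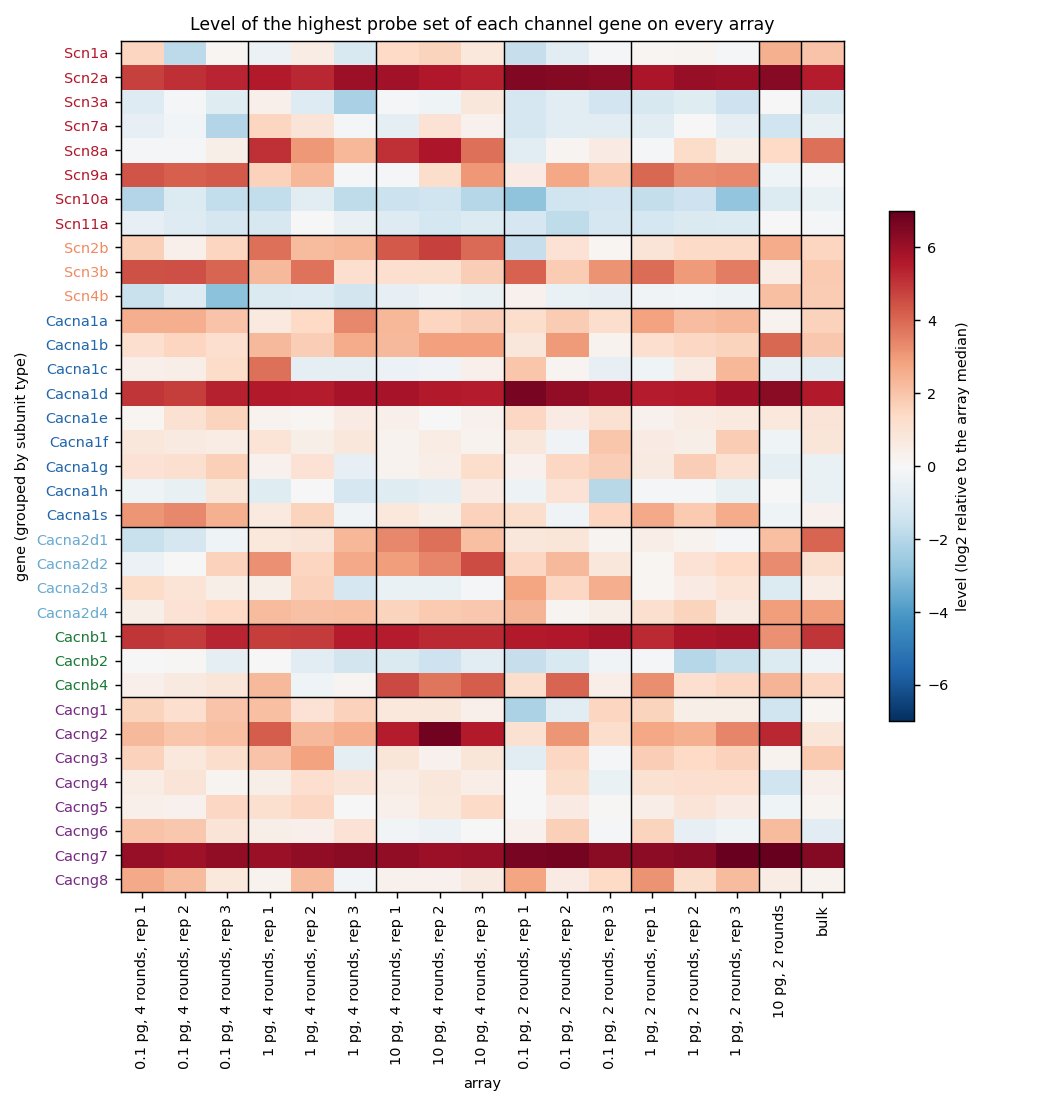
Level (log2 relative to the array median, colour) of the highest probe set of each of the 35 channel genes (rows, grouped by subunit type) on each of the 17 arrays (columns). Scn2a, Cacna1d, Cacnb1 and Cacng7 are red in every column, between 3.21 and 7.12, while Scn8a, Cacna2d1 and Cacnb4 are pale or light blue at 0.1 pg after 4 rounds and red at 10 pg after 4 rounds.

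Chosen after their values were seen, 4 probe sets stayed above a level of 3 on each of the 17 arrays, which is 4.71% of the channel probe sets against 3.04% of all probe sets. Scn2a 1445259_at lay between 4.78 and 6.49, Cacna1d 1427974_s_at between 4.83 and 6.62, Cacng7 1439745_at between 5.96 and 7.12 and Cacnb1 1426108_s_at between 3.21, on the 10 pg array after 2 rounds, and 5.83. Scn2a 1427280_at and Cacng7 1426336_at, other probe sets of these genes, fell at 0.1 pg relative to 10 pg.

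At the smallest input after 4 rounds, probe sets of 8 channel genes fell and of 3 rose relative to 10 pg. The fall took in Scn2a, Scn8a, Scn2b, Cacna2d1, Cacna2d2, Cacnb4, Cacng2 and Cacng7, and the rise Scn9a, Scn3b and Cacna1s. In limma, 14 of 85 channel probe sets (16.5%) changed at an adjusted p under 0.05, 3 higher and 11 lower at 0.1 pg, where 8.86% of all 45037 probe sets changed (4.04% higher, 4.83% lower). The median difference was -0.11 over the channel probe sets and 0.10 over all. On the highest probe set of each gene, 9 of 35 channel genes (25.7%) and 9.97% of all genes changed.

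Among the sodium channel alpha genes, 4 of 24 probe sets changed. Scn8a 1423515_at read -0.09, -0.08 and 0.43 on the 0.1 pg arrays and 5.10, 5.65 and 3.87 on the 10 pg arrays. The 0.1 pg arrays were at the array median and the 10 pg arrays near or above the bulk level of 3.85, with no overlap. The difference was -4.79 ± 0.659 (SE, n = 3 each), a 27.6-fold lower signal, with a limma adjusted p of 0.000451, and the 1 pg arrays, at 5.13, 3.04 and 2.34, lay between on average. Of the 5 probe sets of Scn8a it was the 1 called. The means at 0.1 and 10 pg were 1.40 and 2.25 on 1439889_at and -0.61 and 0.04 on 1451894_a_at. They were -0.27 and -0.99 on 1442208_at, and 0.15 and 0.14 on 1457412_at.

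Scn2a 1427280_at read 2.12, 0.99 and 1.87 at 0.1 pg and 5.86, 5.96 and 4.84 at 10 pg after 4 rounds. It was 14.9-fold lower at 0.1 pg (difference -3.89 ± 0.660, SE, n = 3 each, limma adjusted p = 0.00199), and the groups did not overlap. Scn2a 1427281_at, which was designed from the same source sequence, read -1.97, -2.41 and -0.68 at 0.1 pg and 0.34, 1.60 and -0.43 at 10 pg, a difference of -2.19 ± 0.589 (limma adjusted p = 0.0297), with the groups separated by a narrow gap. On the highest probe set of Scn2a, 1445259_at, the difference was -0.55 ± 0.372 (limma adjusted p = 0.378).

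Scn9a, a sodium channel known from sensory neurons, went the other way on 1 of 5 probe sets. Its 1442809_at read 4.40, 4.20 and 4.29 on the 0.1 pg arrays, against -0.13, 1.22 and 3.02 on the 10 pg arrays and -0.13 in bulk. The 0.1 pg arrays were tightly grouped and the 10 pg arrays were scattered, without overlap, and the difference was 2.93 ± 0.741 (limma adjusted p = 0.0219). The other 4 probe sets of Scn9a gave differences from -0.38 to 0.54, and none passed.

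Of the 6 sodium channel beta probe sets, 2 changed in opposite directions. Scn2b 1430648_at, from a beta subunit bound to the alpha subunit by a disulfide bond, read 1.69, 0.38 and 1.48 at 0.1 pg and 4.29, 4.77 and 3.95 at 10 pg, with no overlap (difference -3.15 ± 0.623, limma adjusted p = 0.00548). Scn3b 1426328_a_at, from a beta subunit that is not covalently bound, read 4.43, 4.53 and 4.06 at 0.1 pg and 1.20, 1.11 and 1.72 at 10 pg. The 0.1 pg arrays stood well above the bulk level of 1.85 and the 10 pg arrays below it (difference 2.999 ± 0.634, 7.99-fold higher, limma adjusted p = 0.00828). The second probe set of Scn3b, 1435767_at, read 1.59, 0.96 and 2.76 at 0.1 pg and 4.14, 3.85 and 3.21 at 10 pg, a difference of -1.96 ± 0.702 (limma adjusted p = 0.0910). The probe sets of this gene thus differed in sign.

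Of the 19 probe sets of calcium channel pores, 1 changed and it was higher. Cacna1s, the L-type pore of skeletal muscle, read 3.10, 3.37 and 2.47 at 0.1 pg and 0.76, 0.43 and 1.63 at 10 pg, against 0.32 in bulk, without overlap of the groups (difference 2.04 ± 0.564, limma adjusted p = 0.0336). Of the 7 measured channel genes listed as known mainly from muscle, sensory ganglia or retina, it was the 1 that changed. That list does not hold Scn9a, also known from sensory neurons, which rose on 1442809_at. The 9 skeletal and heart muscle markers had a median percentile of 40.4 ± 11.1 at 0.1 pg and 49.9 ± 1.59 at 10 pg (SD, n = 3 each), and 0 of 9 passed in either direction. At an unadjusted p under 0.05 in limma were 2 of the 9, and 4931 of all 18193 genes.

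Of the 12 alpha2delta probe sets, 3 changed and all were lower. Cacna2d1 1433643_at read -1.58, -1.15 and -0.30 at 0.1 pg and 3.34, 3.88 and 2.10 at 10 pg, against 4.10 in bulk. Signal at 0.1 pg was below the array median on all 3 arrays, 17.3-fold lower than at 10 pg (difference -4.12 ± 0.544, limma adjusted p = 0.000348). Cacna2d1 1449999_a_at differed by -1.48 ± 0.438 (limma adjusted p = 0.0445) and the other 3 probe sets of the gene by -0.65 to 1.18, none past the threshold. Cacna2d2 1450754_at, from the other gabapentin-binding subunit, read -0.44, -0.04 and 1.63 at 0.1 pg and 2.94, 3.41 and 4.59 at 10 pg, with no overlap (difference -3.26 ± 0.642, limma adjusted p = 0.00531).

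Cacnb4, a beta subunit of the brain, fell on 2 of 3 probe sets. Its 1428928_at read 0.36, 0.64 and 0.82 at 0.1 pg and 4.61, 3.75 and 4.23 at 10 pg (difference -3.59 ± 0.827, limma adjusted p = 0.0132), and its 1436912_at -1.68, -2.41 and -3.28 at 0.1 pg and 0.42, -0.08 and -0.26 at 10 pg (difference -2.48 ± 0.731, limma adjusted p = 0.0442). Neither pair of groups overlapped. Cacnb1 and Cacnb2 had no probe set past the threshold.

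Among the gamma genes, 2 of 15 probe sets changed. Cacng2, which carries AMPA receptors to the synapse, read 2.28, 1.93 and 2.12 on 1440210_at at 0.1 pg and 5.49, 6.77 and 5.54 at 10 pg. It was 14.2-fold lower at 0.1 pg (difference -3.82 ± 0.611, limma adjusted p = 0.00131), although the bulk level was only 0.82, and its other probe sets differed by 1.15 and 1.35 with no call. Cacng7 1426336_at read 0.25, 0.48 and 0.49 at 0.1 pg and 3.35, 3.58 and 2.17 at 10 pg (difference -2.63 ± 0.520, limma adjusted p = 0.00548), whereas the difference on its highest probe set was -0.01 ± 0.362.

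**Figure D2:**
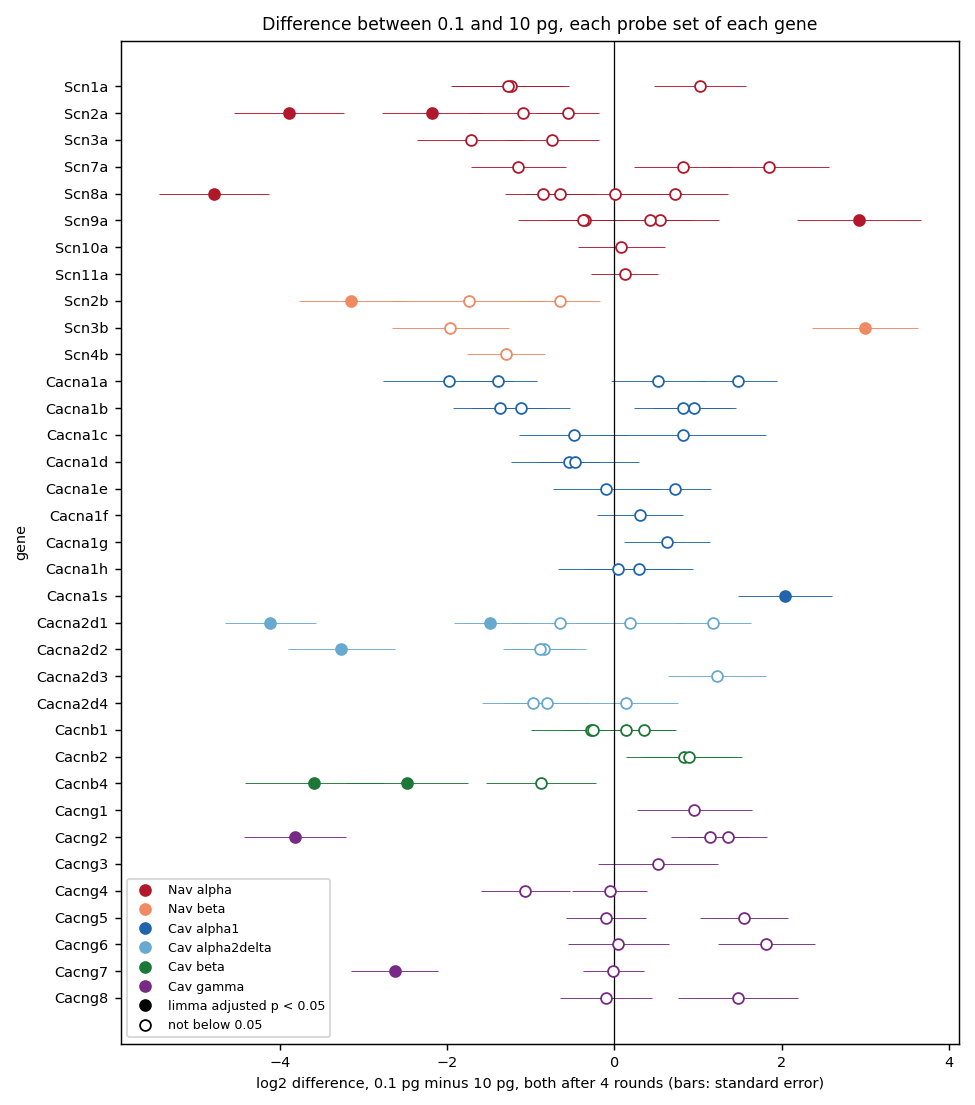
Difference in level (log2, 0.1 pg minus 10 pg, both after 4 rounds, n = 3 each) of each of the 85 probe sets, one row per gene, with the standard error as a bar and colour by subunit type. Filled points are the 14 with a limma adjusted p under 0.05: 11 lie left of 0, down to -4.79, and 3 right of it, up to 2.999.

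Set beside bulk, 7 of the 11 probe sets that fell were nearer to the bulk level at 10 pg than at 0.1 pg, as were all 3 that rose. The other 4, Scn2b 1430648_at, Cacna2d2 1450754_at, Cacnb4 1428928_at and Cacng2 1440210_at, were nearer to bulk at 0.1 pg, because at 10 pg they lay 2.81, 2.52, 2.74 and 5.11 above it. The 1 pg mean lay between those of 0.1 and 10 pg for 11 of the 14. They were picked in these data for their gap between 0.1 and 10 pg, which by itself makes a mean inside it likely. Neither this count nor that of nearness to bulk was made over all called probe sets. The arrays of 0.1 and 10 pg did not overlap for any of the 14, nor for 47 of the 85 channel probe sets (55.3%), where 40.3% of all probe sets did not overlap.

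**Figure D3:**
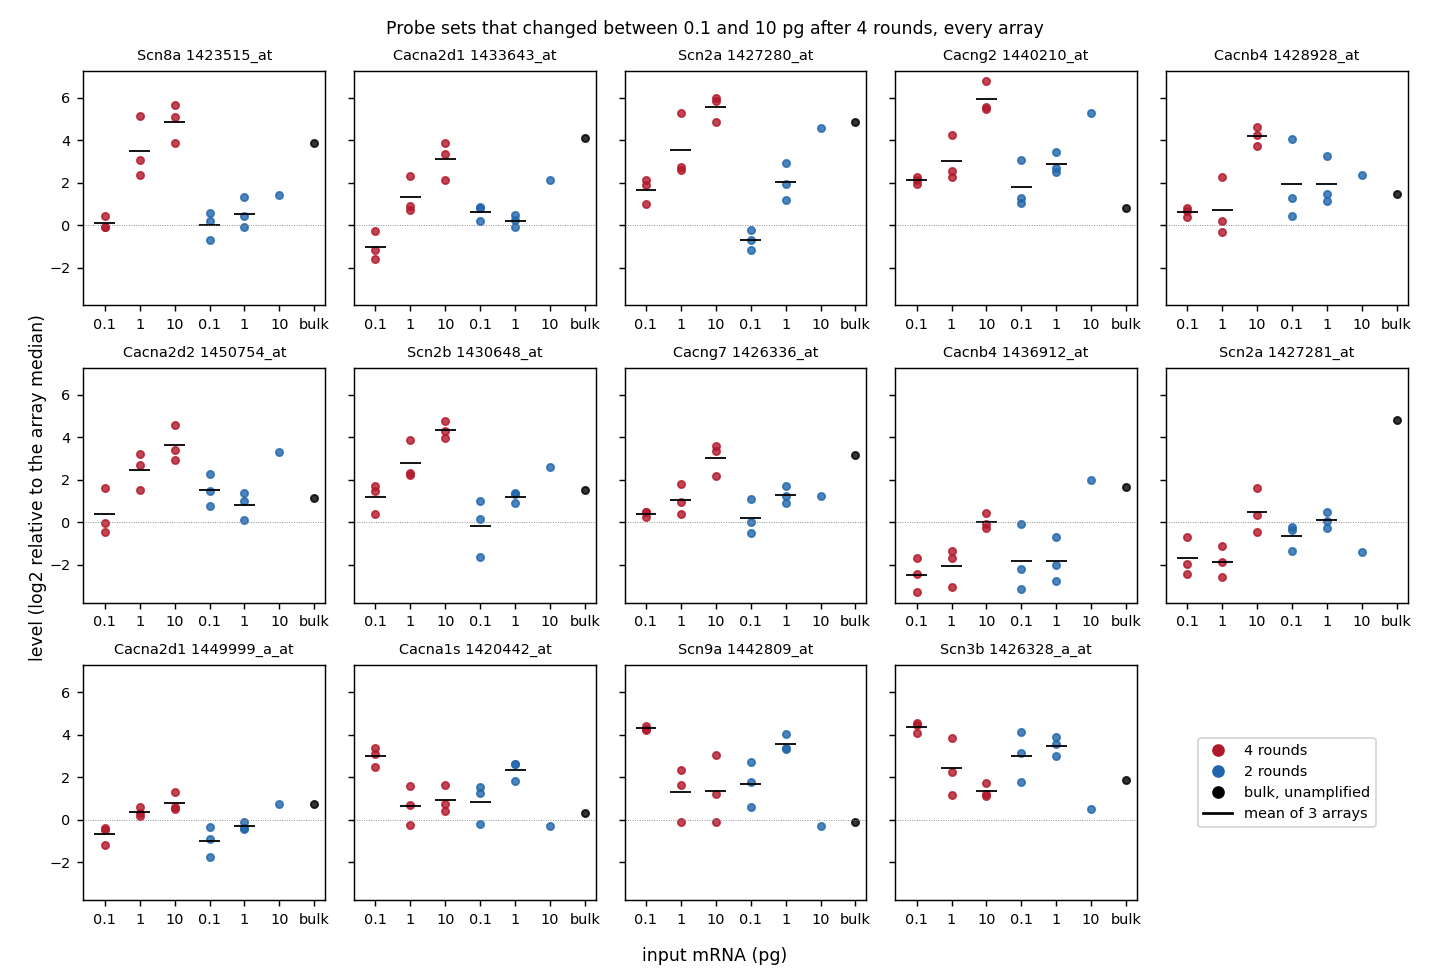
Level (log2 relative to the array median) of the 14 probe sets that changed between 0.1 and 10 pg after 4 rounds, on every array, by input in pg after 4 rounds (red), after 2 rounds (blue) and in bulk (black), with bars at the means of 3 arrays. Scn8a 1423515_at climbs with input after 4 rounds to 5.65 but stays at or below 1.42 after 2 rounds, and Cacng2 1440210_at reaches 6.77 at 10 pg against 0.82 in bulk.

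Probe sets of the same gene differed in call and in sign. Of the 26 genes with several, 10 had some but not all called between 0.1 and 10 pg after 4 rounds, 0 had all called, 15 held differences of both signs and 11 of 1 sign. The same counts were not made over all genes with several probe sets, so these do not set the channels apart. For 2 genes, Scn2a and Cacng7, the highest probe set was not called and another was. In bulk the probe sets of Scn2a lay between 1.96 and 5.48, and at 0.1 pg after 4 rounds their means lay between -2.32 and 5.09.

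**Figure D4:**
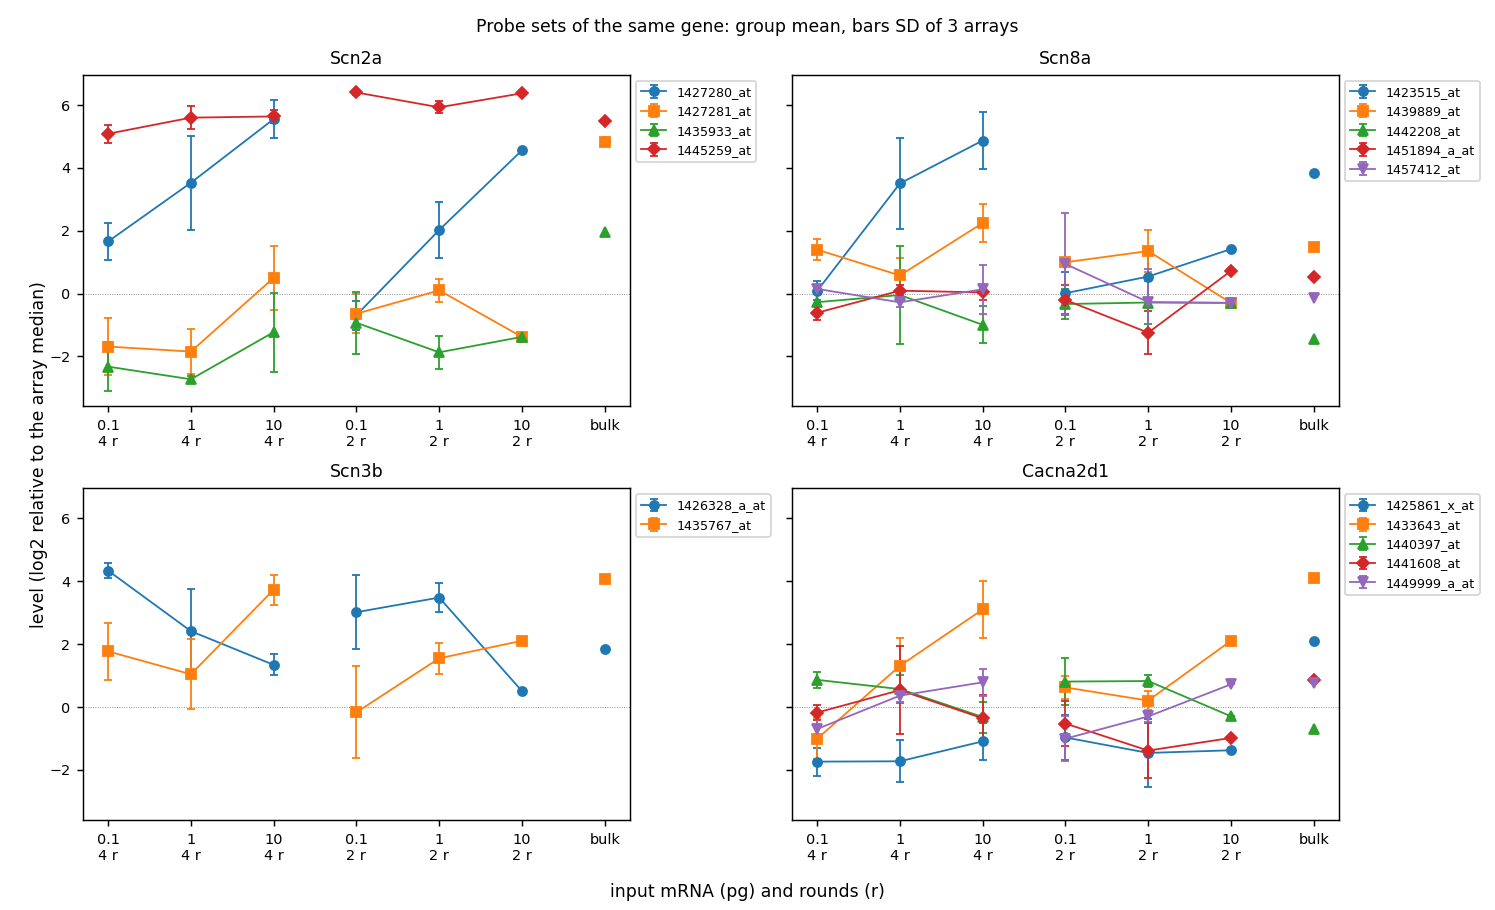
Mean level (log2 relative to the array median, bars SD of 3 arrays, single arrays without a bar) of each probe set of Scn2a, Scn8a, Scn3b and Cacna2d1, chosen after their values were seen, by input in pg and rounds (r). In Scn2a, 1445259_at is flat near the top while 1427280_at has 4 round means of 1.66 at 0.1 pg and 5.55 at 10 pg, and in Scn3b both lines cross.

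Some listed partners of the channels fell at 0.1 pg in limma, where 4.99% of all genes fell. Of 10 genes that anchor or modulate sodium channels, 3 fell: Nedd4l, a ubiquitin ligase (-4.41), Fgf14, an intracellular channel regulator (-3.64), and Ank3, the initial segment scaffold (-2.73), with limma adjusted p of 0.00162, 0.0110 and 0.00497. The other 7 differed by -2.65 (Cntn1) to 1.82 (Sptbn4), and the median of the 10 was -1.05. Of 13 calcium channel partners, 3 fell: the presynaptic proteins Stx1a (-4.24), Snap25 (-3.65) and Rims1 (-3.04), with limma adjusted p of 0.00785, 0.000850 and 0.00448. The other 10 differed by -2.10 (Akap5) to 1.82 (Stac), and the median of the 13 was 0.11, against 0.13 over all genes. Of 10 related cation channels such as the HCN genes, 0 passed in limma, and 0 had an unadjusted p under 0.05, where 4931 of all 18193 genes had.

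Other measures moved with input too. Of the 8 neuron markers 4 fell at 0.1 pg, Eno2 (-5.38), Nefl (-5.05), Neurod6 (-4.42) and Snap25, and the median percentile of the list was 58.9 to 86.4 on the 0.1 pg arrays and 90.3 to 97.1 on the 10 pg arrays. Of 4 oligodendrocyte markers 1 rose, Mbp (2.99), and of the astrocyte, microglia, vascular, sensory ganglion and retina markers 0 passed in limma, with 1 of 5, 1 of 5, 2 of 5, 0 of 3 and 4 of 5 at an unadjusted p under 0.05. Over all genes, 4931 of 18193 were at an unadjusted p under 0.05. The retina list had a median percentile of 78.0 ± 9.87 at 0.1 pg and 49.9 ± 1.28 at 10 pg (SD, n = 3 each), and of its 4 genes Nrl (1.71), Gnat1 (1.56) and Crx (1.02) read higher and Rcvrn (-1.39) lower. The 3′ minus 5′ log2 signal of the control transcripts was -0.81 ± 0.156 at 0.1 pg and 1.13 ± 0.551 at 10 pg for Actb, 3.71 ± 0.0292 and 4.73 ± 0.207 for Gapdh, and 6.62 ± 0.769 and 4.74 ± 0.183 for Tfrc (SD, n = 3 each). The part of these in the channel results was not tested.

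Left out in turn, no single array ended the call of 8 of the 14 probe sets: Scn8a 1423515_at, Scn2a 1427280_at, Scn2b 1430648_at, Scn3b 1426328_a_at, Cacna2d1 1433643_at, Cacna2d2 1450754_at, Cacng2 1440210_at and Cacng7 1426336_at. Cacna2d1 1449999_a_at and Cacnb4 1436912_at lost it without any one of the 6 arrays, Scn9a 1442809_at without any one but replicate 3 of 10 pg, Cacna1s 1420442_at and Scn2a 1427281_at without replicate 1 or 2 of either input, and Cacnb4 1428928_at without replicate 1 of either. The highest adjusted p among these was 0.179, 0.157, 0.129, 0.134, 0.149 and 0.0650 for the 6 in that order, and leaving out replicate 1 of either input left 8 calls.

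Averaged over 2 and 4 rounds, 2 channel probe sets fell at 0.1 pg relative to 1 pg, both from sodium channel pores. That is 2 of 85 (2.35%), where 1.24% of all probe sets changed (0.986% lower), and by gene 1 of 35 (2.86%) where 1.5% of all genes did. Scn2a 1427280_at was lower at 0.1 pg within each number of rounds without overlap: after 4 rounds it read 2.12, 0.99 and 1.87 at 0.1 pg against 2.58, 2.75 and 5.26 at 1 pg, and after 2 rounds -1.15, -0.22 and -0.68 against 1.19, 2.94 and 1.95. The averaged difference was -2.29 ± 0.467 (n = 6 each, limma adjusted p = 0.0238). The call was lost on leaving out replicate 2 of the 0.1 pg, 4 round group (0.0771), or replicate 2 (0.0701) or 3 (0.0522) of the 1 pg, 2 round group.

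Scn8a 1423515_at was separated between 0.1 and 1 pg after 4 rounds but not after 2 rounds, where it read -0.72, 0.21 and 0.56 at 0.1 pg and -0.10, 1.30 and 0.43 at 1 pg. Its averaged difference of -1.97 ± 0.466 (limma adjusted p = 0.0490) kept the call without replicate 2 or 3 of the 1 pg, 4 round group or replicate 3 of the 0.1 pg, 2 round group, and lost it without any other of the 12 arrays, at up to 0.122. Among the other genes the ends were Scn2b at -1.49 (adjusted p = 0.115), Cacna2d3 at 1.16 (0.190) and Scn3b at 0.73 (0.472). The median was 0.03 over the channel probe sets, or -0.09 with centring alone, and 0.05 over all. Rims1 (-1.86) and Snap25 (-3.41) of the calcium channel partners and Snap25 and Eno2 (-3.57) of the neuron markers fell too, with limma adjusted p of 0.0355, 0.000386 and 0.00882.

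Between 4 and 2 rounds, averaged over 0.1 and 1 pg, the share of channel probe sets that changed was no larger than that of all probe sets. It was 3 of 85 (3.53%), where 3.91% of all changed (1.99% higher, 1.91% lower). On the highest probe set of each gene 0 of 35 passed in limma, where 4.27% of all genes passed. At an unadjusted p under 0.05 in limma were 8 of the 35, and 4254 of all 18193 genes. Scn2a 1427280_at was higher after 4 than after 2 rounds and 2 probe sets of Scn9a were lower. The median was 0.10 over the channel probe sets, or -0.07 without the 3 arrays with the fewest distinct channel levels, and -0.05 over all. Scn2a 1427280_at differed by 1.92 ± 0.467 (n = 6 each, limma adjusted p = 0.0328), and the arrays of 4 and 2 rounds overlapped at 1 pg and not at 0.1 pg.

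Scn9a 1442810_x_at read -1.85, -2.71 and -1.38 after 4 rounds and 0.00, 2.64 and 1.45 after 2 rounds at 0.1 pg, and -2.24, -2.07 and -1.96 after 4 rounds and -2.23, -2.33 and 0.47 after 2 rounds at 1 pg. The groups were apart at 0.1 pg and overlapped at 1 pg (difference -2.04 ± 0.543, limma adjusted p = 0.0467). Its 1421660_at differed by -1.19 ± 0.316 (limma adjusted p = 0.0459). On the array that read 0.00, replicate 1 of 0.1 pg after 2 rounds, 12 of the 85 channel probe sets shared that level, and the part of such ties was not tested. Among the highest probe sets, Scn8a differed by 1.52 (adjusted p = 0.0757), Scn2b by 1.47 (0.0698), Cacnb4 by -1.28 (0.214) and Scn4b by -1.15 (0.0598). In the other lists Snap25 (3.34) and the retina marker Gnat1 (1.78) rose and Ank3 (-1.43) fell, with limma adjusted p of 0.000775, 0.0337 and 0.0448.

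None of these 3 calls held without each single array: Scn2a 1427280_at lost it without 6 of 12 arrays, Scn9a 1421660_at without 8 and Scn9a 1442810_x_at without 11, at up to 0.0795, 0.107 and 0.108. Of the 4 round arrays, leaving out replicate 1 of 0.1 pg or replicate 3 of 1 pg left 0 calls, replicate 3 of 0.1 pg or replicate 1 of 1 pg left 1, and replicate 2 of 1 pg left 5. Of the 2 round arrays, leaving out replicate 3 of 1 pg left 0 calls, replicates 1 or 2 of 1 pg left 1 each, and replicate 3 of 0.1 pg left 6.

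The interaction of rounds with 0.1 or 1 pg passed for Scn9a 1442809_at and Cacna1s 1420442_at, 2 of 85 channel probe sets (2.35%), a smaller share than the 3.59% of all probe sets (2.46% higher). By gene it was 2 of 35 (5.71%), where 4.0% of all genes passed. Scn9a 1442809_at read 4.40, 4.20 and 4.29 after 4 rounds and 0.57, 2.70 and 1.76 after 2 rounds at 0.1 pg, but 1.62, 2.33 and -0.11 after 4 rounds and 4.01, 3.33 and 3.38 after 2 rounds at 1 pg. At 0.1 pg every array of 4 rounds was above those of 2 rounds and at 1 pg every one was below, a difference of differences of 4.91 ± 1.05 (limma adjusted p = 0.0205). Cacna1s ran alike, with 3.10, 3.37 and 2.47 after 4 rounds and 1.26, -0.22 and 1.52 after 2 rounds at 0.1 pg, and 0.67, 1.56 and -0.26 after 4 rounds and 2.64, 1.83 and 2.61 after 2 rounds at 1 pg (3.83 ± 0.798, limma adjusted p = 0.0193). Scn9a 1442810_x_at, designed from the same source sequence as 1442809_at, went the other way at 0.1 pg, with every array of 4 rounds below those of 2 rounds. The most negative values among the highest probe sets, Scn8a at -2.89 and Cacna2d2 at -2.76, had adjusted p of 0.0917 and 0.0975. The microglia marker C1qa also passed (3.91, limma adjusted p = 0.0302). Leaving out replicate 1 or 2 of the 0.1 pg, 4 round group, or replicate 1 of the 1 pg, 2 round group, left 0 calls. The highest adjusted p of Scn9a 1442809_at and Cacna1s was then 0.0606 and 0.0587. Replicate 3 of the 1 pg, 2 round group left 1, replicate 1 of the 0.1 pg, 2 round group left 4, and replicate 2 of the 1 pg, 4 round group left 5.

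Against bulk, the 6 amplified groups weighted equally were lower on 4 of 85 channel probe sets (4.71%), where 1.1% of all probe sets changed (1.03% lower, 0.0711% higher). By gene it was 1 of 35 (2.86%), where 0.819% of all genes changed. All 4 belong to Scn2a and Cacna2d1. As bulk was 1 array, with no replicate check, its spread was taken to be that of the amplified arrays, and the p-values rest on that assumption. Scn2a 1427281_at ranged from -2.55 to 1.60 over the 16 amplified arrays, with a median of -0.55, against 4.83 in bulk, so every amplified array lay below it (difference -5.65 ± 0.748, 50.2-fold lower, limma adjusted p = 0.00246). Scn2a 1435933_at ranged from -2.87 to 0.21, with a median of -1.81, against 1.96 in bulk (-3.70 ± 0.797, limma adjusted p = 0.0336).

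Cacna2d1 1425861_x_at ranged from -2.39 to -0.28, with a median of -1.54, against 2.11 in bulk (limma adjusted p = 0.0296). Cacna2d1 1433643_at ranged from -1.58 to 3.88, with a median of 0.77, against 4.10 in bulk, so that 10 pg after 4 rounds came close to the bulk level while 0.1 pg did not (-3.04 ± 0.690, limma adjusted p = 0.0441). The steady probe set of Scn2a, 1445259_at, ranged from 4.78 to 6.49 against 5.48. The median difference was -0.09 over the channel probe sets and 0.10 over all, or 0.08 and 0.30 on the values as deposited. None of the partner, related channel or marker genes passed. Replicate 1 of the 0.1 pg, 4 round group, or of the 1 pg, 2 round group, when left out, left 2 calls: Scn2a 1435933_at was then at 0.0536 or 0.0526. Cacna2d1 1433643_at also lost its call, at up to 0.0676, without replicate 2 of the 0.1 pg, 4 round group, 1 or 2 of the 1 pg, 4 round group, 1 of the 10 pg, 4 round group, or 2 or 3 of the 1 pg, 2 round group, and Scn2a 1427281_at and Cacna2d1 1425861_x_at held without each of the 15 arrays of groups with replicates. Without the array of 10 pg after 2 rounds, 5 channel probe sets passed, these 4 among them. The comparisons with 0.1 pg share those arrays with each other, and those with bulk share its 1 array.

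Pearson's r of the 85 channel probe sets with bulk was 0.481 ± 0.0627 for 0.1 pg, 0.596 ± 0.0618 for 1 pg and 0.714 ± 0.0463 for 10 pg in the 4 round groups (SD, n = 3 each), while the 2 round groups had 0.477 ± 0.0494, 0.616 ± 0.0359 and 0.660 in order of input. Across all probe sets the 4 round groups had 0.674, 0.766 and 0.819 and the 2 round groups 0.596, 0.693 and 0.703. The channel value thus grew with input and lay below that of all probe sets on average in each group. These are correlations across probe sets within an array, which are not independent replicates and share their probes, and no test was made of them.

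**Figure D5:**
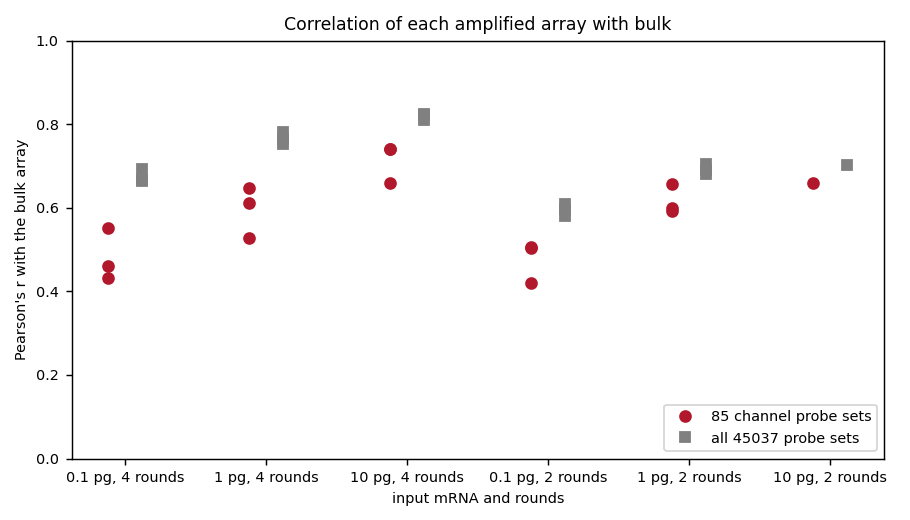
Pearson's r of each amplified array with the bulk array, across the 85 channel probe sets (red circles) and across all 45037 probe sets (grey squares), by input mRNA and rounds. After 4 rounds the channel mean is 0.481 at 0.1 pg and 0.714 at 10 pg, and the grey squares lie above the red circles in each group.

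The median percentile of the 35 genes on an array, each by its highest probe set, was 73.5 ± 2.70 (0.1 pg), 72.5 ± 8.22 (1 pg) and 71.3 ± 4.38 (10 pg) in the 4 round groups, 67.9 ± 6.27 (0.1 pg), 73.8 ± 2.48 (1 pg) and 65.0 (10 pg) in the 2 round groups, and 69.4 in bulk (SD, n = 3 where given). These differ by little beside their spread, and were not tested. The number of channel probe sets above a level of 2 differed more, with 9 to 13, 15 to 17 and 17 to 19 in the 4 round groups in order of input, 8 to 10, 9 to 13 and 17 in the 2 round groups, and 14 in bulk. The median SD of a channel probe set between amplifications at 0.1 pg was 0.441 after 4 rounds and 0.845 after 2 rounds, against 0.438 and 0.844 over all probe sets.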

How the data were processed

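Probe signals of an Affymetrix mouse array were combined into 1 value per probe set by the authors with RMA 2.0 (upper decile statistic, per the methods), who deposited log2 values, from 1.56 to 15.8. No genome build is given in the sources used here. The median centring and scaling that the methods describe are not in the deposited values, whose array medians are 5.64 to 6.01. They were applied here: each array was centred on its median, divided by its 10th to 90th percentile range and multiplied by the mean range of 4.63. The 64 control probe sets were left out, and 45037 were analysed. Gene symbols came from the platform's annotation, which gives 34945 probe sets 1 symbol, 932 several and 9160 none. All 35 channel symbols matched RefSeq. All 17 columns were matched to a sample and 0 others were present. No 2 arrays shared more than 0.926% of their values.

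The test was limma's moderated fit (version 3.58.1, under R 4.3.3) over all 7 groups with no covariate, with Benjamini-Hochberg adjustment over 45037 probe sets and a threshold of 0.05. The fit was tested on simulated data. No background was measured here, so sizes below the array median are less certain, and the number of arrays limits the precision. A gene's value is that of its brightest probe set, by the mean of the 17 arrays. Named were members past the threshold, with the 2 largest differences either way where fewer than 4 passed, the 3 highest and 2 lowest in bulk of each subunit type, genes whose probe sets differ in call, and other listed genes past the threshold; genes whose probe sets differ in sign alone are given as counts. The channel genes and the lists were chosen with earlier results of these data known. Scaling, filter, threshold, test, groups in the fit, replicate block and arrays left out were varied.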

Additional observations from a re-analysis of the deposited data

Results flagged for a closer look

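The effect of rounds differed between 0.1 and 1 pg, by the interaction term in limma, for 2 of 85 channel probe sets (2.35%), where 3.59% of all passed. Scn9a 1442809_at had means of 4.30 after 4 rounds and 1.68 after 2 rounds at 0.1 pg, and 1.28 after 4 rounds and 3.57 after 2 rounds at 1 pg, a difference of differences of 4.91, and lost the call without 3 of 12 single arrays. Its other 4 probe sets did not pass. Among them 1442810_x_at, designed from the same source sequence, had means of -1.98 after 4 rounds and 1.36 after 2 rounds at 0.1 pg. At 1 pg its means were -2.09 after 4 rounds and -1.36 after 2 rounds, so its difference of differences had the opposite sign. Cacna1s 1420442_at, the only probe set of its gene, had means of 2.98 after 4 rounds and 0.85 after 2 rounds at 0.1 pg, and 0.66 after 4 rounds and 2.36 after 2 rounds at 1 pg, a difference of differences of 3.83, and lost the call without 4 of 12. Both read -0.29 on the 10 pg array after 2 rounds, a level that 10 of the 85 channel probe sets shared there. The part of such ties was not tested.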

How the results depend on the processing

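No called channel probe set changed direction. Their results kept the call 289 times under an alternative and lost it 115 times. That tally leaves out an adjusted p under 0.001, the threshold of the methods, which is given below. Over all alternatives the median of the channel probe sets lay between -0.26 and -0.02 for 0.1 against 10 pg, -0.19 and 0.13 for 0.1 against 1 pg, -0.07 and 0.20 for rounds, -0.15 and 0.09 against bulk and -0.20 and 0.27 for the interaction, so that the last 4 changed sign. Calls between 0.1 and 10 pg after 4 rounds numbered 18 on the values as deposited (7 higher, 11 lower, against 3 and 11), 22 with the compared groups alone (8 higher, 14 lower), 2 at an adjusted p under 0.001 and 5 by the methods' t-test after Benjamini-Hochberg. Counts of calls in this paragraph stand without the share of all probe sets called under the same alternative. They do not show whether the channel share stayed above that of all. Scn8a 1423515_at, Scn2a 1427280_at, Scn3b 1426328_a_at and Cacng2 1440210_at kept the call at 0.05 under each of 13 alternatives, which do not include the stricter threshold. For 0.1 against 1 pg the count was 1 as deposited, with centring alone, with quantile normalization and with the compared groups alone, and 4 without the 3 arrays with the fewest distinct channel levels, an alternative chosen after seeing the data. For rounds it was 5 as deposited (1 higher, 4 lower), 2 after quantile normalization (1 higher, 1 lower) and 0 with the compared groups alone. Against bulk it was 1 over probe sets above the array median and 8 without those 3 arrays. For the interaction it was 3 as deposited (2 higher, 1 lower) and 4 without those 3 arrays. At an adjusted p under 0.001 the last 4 comparisons gave 0, with 15, 22, 21 and 18 at an unadjusted p under 0.05, and by the methods' t-test 0, 0 and 0 for the 3 it was run on, with 10, 17 and 10. As deposited, the median over all probe sets against bulk was 0.30, against 0.10, and that of the channels 0.08, against -0.09. Arrays left out in turn gave 8 to 13 calls for 0.1 against 10 pg, 0 to 3 for 0.1 against 1 pg, 0 to 6 for rounds, 2 to 6 against bulk and 0 to 5 for the interaction. With the median over the probe sets of each gene in place of the highest, the median percentile of the genes was 56.6, 54.5 and 57.4 at 0.1, 1 and 10 pg after 4 rounds, 51.6, 54.7 and 44.8 after 2 rounds and 63.5 in bulk. Percentiles do not change with the scaling.

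The replicate numbers were not taken to pair samples. Deviations from the group means correlated at -0.00714 on average over 30 pairs of arrays with the same number (-0.199 to 0.139). The mean for different numbers, 0.00358, is tied to that value by the centring on group means and is no separate comparison. With the replicate number as a block the calls were 13 for 0.1 against 10 pg, 1 for 0.1 against 1 pg, 2 for rounds and 2 for the interaction. Bulk, with 1 array, was not part of that fit.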
